A study of Bos taurus with 8 samples.

Results

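Of 10 genes of the Notch pathway that were listed by symbol (4 receptors, 4 ligands and 2 target genes), 9 were found among the 13861 genes measured in day 17 CL. They are NOTCH1, NOTCH2, NOTCH4, JAG1, JAG2, DLL1, DLL4, HES1 and HEY1, of which NOTCH1 and HEY1 are written Notch1 and Hey1 in the table. No row carried the symbol NOTCH3, but LOC789485, described as similar to NOTCH3, has the number that RefSeq gives as the gene ID of bovine NOTCH3, and it is described beside the others. The CL came from 8 Holstein heifers on day 17 after estrus. Of these, 4 had not been bred and were in the estrous cycle (cyclic replicates 1 to 4), and 4 had been bred and were pregnant (pregnant replicates 1, 2, 4 and 5). Each CL is from a separate animal and was sequenced as whole tissue from total RNA, so the mRNA of luteal, vascular and other cells are measured together.

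Notch receptors are held in the cell membrane and are activated by ligands of the Jagged (JAG) and Delta-like (DLL) families on a neighboring cell. Upon binding, the receptor is cut by an ADAM protease and by gamma-secretase, and its inner part enters the nucleus, joins the DNA-binding protein RBPJ and turns on genes of the HES and HEY families, which encode transcriptional repressors. In blood vessels, of which the CL is exceptionally rich, DLL4, NOTCH1 and NOTCH4 are known from endothelial cells and NOTCH3 and HEYL from the mural cells (pericytes and smooth muscle) around them. In whole tissue, fewer cells of a type and less RNA per cell cannot be told apart.

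No Notch receptor, ligand or target passed the test between the estrous cycle and pregnancy. Of the 9 genes found by symbol, 0 had a limma adjusted p under 0.05, which 0.0216% of all genes had (0.0144% higher and 0.00721% lower in pregnancy). Unadjusted limma p was under 0.05 for 0 of the 9 and for 7.51% of all genes. In edgeR and limma-voom 0 of the 9 passed, where 1 of all 13861 genes passed in each. In DESeq2, which gave DLL1 no adjusted p, 0 passed as well, beside 0.746% of the genes given an adjusted p. In 0 of the 9 did the CL of the groups fail to overlap, where 4.3% of all genes did not overlap. Their log2 differences were above 0 for 4 and below 0 for 5, with a median of -0.18, beside 0.00047 over all genes. Levels are normalized counts, in which the reads of a CL were scaled by a factor particular to that CL. Transcript length does not enter them, so levels are not compared between genes. A log2 difference is pregnancy minus the cycle on the log2(normalized count + 1) scale, and means are given with the SD over n = 4 CL per group. The p-values of the group differences weigh a difference against the spread between these animals.

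The CL held 42770725 to 48294165 reads each, and the steroidogenic markers were abundant, with STAR, the cholesterol carrier of steroid synthesis, at 496165 normalized counts or more in every CL. All 15 endothelial and 11 of 12 mural markers were measured. Their summed levels overlapped between groups, at 114809 to 141956 in the cycle and 104522 to 142217 in pregnancy for endothelial markers, and at 74783 to 88804 and 70284 to 96886 for mural markers. Fibroblast markers summed to 484152 to 755432 and 460819 to 574924, and leukocyte markers to 8363 to 14175 and 9703 to 17934. No red blood cell marker of 3 listed was matched, and the first principal component, with 19.6% of the variance, did not separate the groups. On the second, with 17.4%, cyclic replicates 1 to 4 were at 0.45, 0.59, 0.12 and -0.09. Pregnant replicates 1, 2, 4 and 5 were at -0.36, -0.44, -0.32 and 0.04, so the groups lay mostly apart but overlapped.

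**Figure D1:**
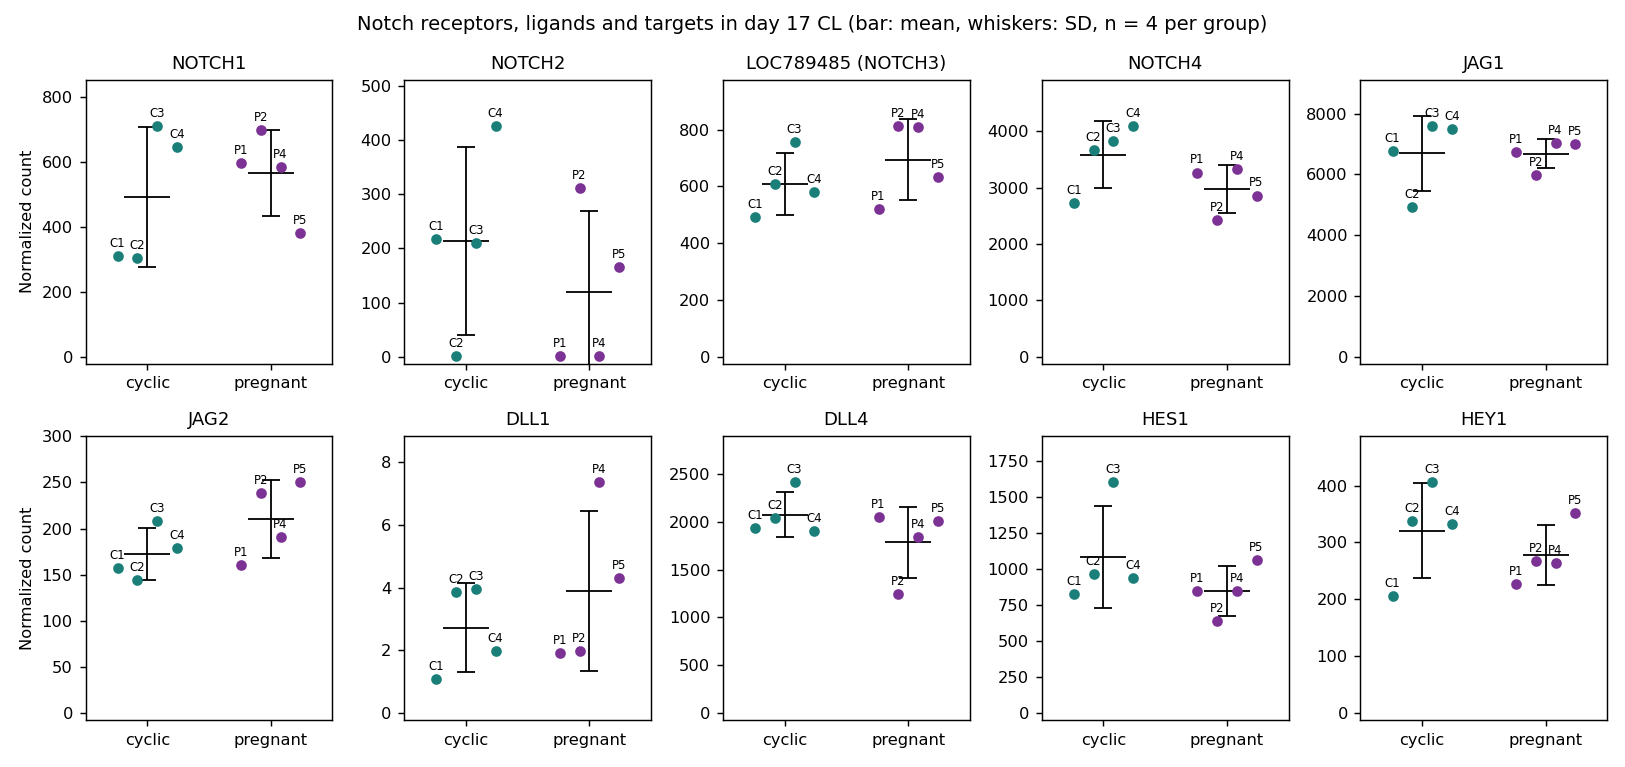
Normalized counts (y axis, linear) of the 9 members found by symbol and of LOC789485 in the 4 cyclic (C) and 4 pregnant (P) CL. Each point is 1 CL, the bar is the mean and the whiskers are the SD, cut at the axis. The groups overlapped in each panel, and NOTCH2 was near 0 in C2, P1 and P4.

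Among the receptors, NOTCH4 (ENSBTAG00000025424), which is best known from endothelium, had 2727, 3675, 3831 and 4094 normalized counts in cyclic replicates 1 to 4. In pregnant replicates 1, 2, 4 and 5 it had 3268, 2422, 3336 and 2859.9. Cyclic replicates 2, 3 and 4 were thus above all pregnant CL, and cyclic replicate 1 lay among them. The means were 3582 ± 595 and 2972 ± 422, a log2 difference of -0.26 (SE 0.15, 95% interval -0.59 to 0.06, limma adjusted p = 0.701, exact permutation p = 0.171). As a fold, the interval reached from 0.663 to 1.05.

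NOTCH1 (ENSBTAG00000022799), a receptor of many cell types, varied widely among the cyclic CL. It had 311 and 304 normalized counts in cyclic replicates 1 and 2, and 711 and 645 in cyclic replicates 3 and 4. In pregnancy it had 597, 699, 585 and 382, so all pregnant CL lay within the range of the cycle. The log2 difference was 0.27 (SE 0.31, limma adjusted p = 0.848), and with a CL left out it ran from 0.080 (cyclic replicate 2) to 0.49 (cyclic replicate 3). Its SD of log2 values within groups was 0.53, above that of 91.0% of genes whose mean was within a factor of 2 of its own, whose median SD was 0.24.

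LOC789485 (ENSBTAG00000043971), the NOTCH3 gene by its RefSeq number, had 491, 608, 756 and 581 normalized counts in the cycle, against 519.9, 813, 810.5 and 634 in pregnancy. Pregnant replicates 2 and 4 were higher than all cyclic CL and the others lay within the range of the cycle. The means were 609 ± 110.0 and 694 ± 143, with a log2 difference of 0.18 (SE 0.19, limma adjusted p = 0.832). NOTCH3 is the receptor that mural cells are known to use.

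NOTCH2 (ENSBTAG00000007909), which is known from mural and granulosa cells among others, was nearly absent from 3 CL and present in the other 5. In the cycle it was at 200, 2, 213 and 434 reads, and in pregnancy at 1, 312, 1 and 154 reads. The CL with 1 or 2 reads were cyclic replicate 2 and pregnant replicates 1 and 4, so both groups held CL of either kind. The table records no number of reads under 1, so a recorded 1 can be a 0. The means were 214 ± 173 and 119 ± 149 normalized counts, and the log2 difference of -2.05 had an SE of 2.03 and a 95% interval of -6.58 to 2.47 (limma adjusted p = 0.8288). When 1 CL was left out, it ran from -3.68 (cyclic replicate 2) to -0.90 (pregnant replicate 4), and it was -0.85 in edgeR and -0.84 in DESeq2. Of all genes, 82, or 0.592%, had at least 100 reads in some CL and at most 2 in another. Each CL held at most 2 reads for 12 to 30 of these 82 genes, and ABCC9, a potassium channel subunit of pericytes, was the other gene of the 82 that was low in exactly the CL where NOTCH2 was. Whether NOTCH2 was missing from the tissue or from the counting of these CL was not tested.

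Among the ligands, JAG1 (ENSBTAG00000012817) had nearly equal means. It had 6777, 4934, 7598 and 7489 normalized counts in the cycle, and 6731, 5983, 7022 and 7014 in pregnancy. Cyclic replicate 2 was the lowest, and the pregnant CL lay within the range of the cycle. The means were 6699 ± 1232 and 6687 ± 489, and the 95% interval of the fold was 0.818 to 1.25 (log2 difference 0.015, SE 0.14, limma adjusted p = 0.988). The sign of this small difference turned when cyclic replicate 2 (-0.13), pregnant replicate 4 (-0.0095) or pregnant replicate 5 (-0.0089) was left out, and in edgeR and DESeq2 (-0.0026 each).

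DLL4 (ENSBTAG00000010361), the ligand of endothelial tip and arterial cells, had 1940.3, 2039.9, 2416 and 1902 normalized counts in the cycle. In pregnancy it had 2049.8, 1246, 1841 and 2008. Pregnant replicate 2 was the lowest of all CL and cyclic replicate 3 the highest, while the other 6 lay between 1841 and 2049.8. The means were 2074 ± 235 and 1786 ± 371, with a log2 difference of -0.24 (SE 0.16, limma adjusted p = 0.746). Without pregnant replicate 2 it was -0.07.

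JAG2 (ENSBTAG00000007319), another Jagged ligand, had 158, 144, 209 and 179 normalized counts in the cycle, against 160.2, 239, 191 and 250.4 in pregnancy. Pregnant replicates 2 and 5 were above every CL of the cycle. The log2 difference was 0.28 (SE 0.21, 95% interval -0.19 to 0.75, limma adjusted p = 0.770). DLL1 (ENSBTAG00000031476) was at 1, 4, 4 and 2 reads in the cycle and at 2, 2, 8 and 4 in pregnancy, and a change could not be measured well at this depth (log2 difference 0.34, 95% interval -0.91 to 1.60). LOC788846, described in the table as delta-like 1-like, was singled out after its values were seen. It had 8, 8, 10 and 11 reads in the cycle and 3, 2, 4 and 3 in pregnancy, with no overlap (log2 difference -1.39, SE 0.40, limma adjusted p = 0.542). Whether it shares reads with DLL1 was not settled.

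The targets HES1 and HEY1 encode repressors that Notch is best known to induce. HES1 (ENSBTAG00000000569) had 825, 967, 1603 and 936 normalized counts in the cycle, against 844, 639.9, 844 and 1059.7 in pregnancy. Cyclic replicate 3 stood above the rest and pregnant replicate 2 below. The means were 1083 ± 352 and 847 ± 171, a log2 difference of -0.33 (SE 0.22, 95% interval -0.82 to 0.16, limma adjusted p = 0.743). Leaving out cyclic replicate 3 brought it to -0.12.

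HEY1 (ENSBTAG00000015717) had 207, 337, 406 and 333 normalized counts in the cycle, against 227, 267, 264 and 351 in pregnancy. Cyclic replicate 1 was the lowest and cyclic replicate 3 the highest, so the cycle spanned all CL of pregnancy. The log2 difference was -0.18 (SE 0.23, limma adjusted p = 0.862).

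Beyond the members, the target HEYL (ENSBTAG00000008688) separated the groups. HEYL, a HEY-family repressor known from mural cells, had 6711, 4718, 7106 and 6175 normalized counts in the cycle. In pregnancy it had 3798, 3471, 3917 and 4044. The groups did not overlap, with all pregnant CL lower and cyclic replicate 2 the nearest to them. The means were 6178 ± 1045 and 3808 ± 246, a fold of 0.623 (95% interval 0.512 to 0.757, log2 difference -0.68, SE 0.13). This did not pass over all genes in limma (adjusted p = 0.349), edgeR (0.373) or limma-voom (0.342), and passed in DESeq2 on recovered reads (adjusted p = 0.000969), where 0.746% of the genes given an adjusted p were called and 0.439% were called lower. The exact permutation p was 0.0286, the smallest that 70 labelings allow.

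HEYL was also compared with markers within each CL, a measure chosen after seeing the data. Relative to the summed mural markers the difference was -0.70 on the log2 scale and relative to the endothelial markers -0.63, each with no overlap between groups (exact permutation p = 0.0286). HEYL alone had the same exact permutation p, so the p-values of these ratios are not separate evidence. Relative to the fibroblast markers it was -0.51 and the groups overlapped (exact permutation p = 0.0571). Each sum weighs its most abundant markers most, such as RGS5 and PDGFRB for mural and KDR and VWF for endothelial markers. For fibroblast markers these were COL1A1 and COL3A1, and for steroidogenic markers STAR and HSD3B1. The summed markers themselves differed by 0.01 (mural, with 5 of 11 markers above 0) and -0.05 (endothelial, with 11 of 15 below 0) on the log2 scale. The differences were -0.18 for fibroblast markers, with 5 of 5 below 0, and 0.25 for steroidogenic markers, with 6 of 8 above 0. Relative to the steroidogenic markers HEYL differed by -0.93, with no overlap (exact permutation p = 0.0286). DCN, a fibroblast marker, was also lower without overlap (log2 difference -0.41, limma adjusted p = 0.550). Relative to the leukocyte markers HEYL differed by -0.75 and relative to the arterial endothelial markers by -0.57, each with no overlap (exact permutation p = 0.0286). The part of any of these cell types in the HEYL result, vascular cells included, was not tested.

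**Figure D2:**
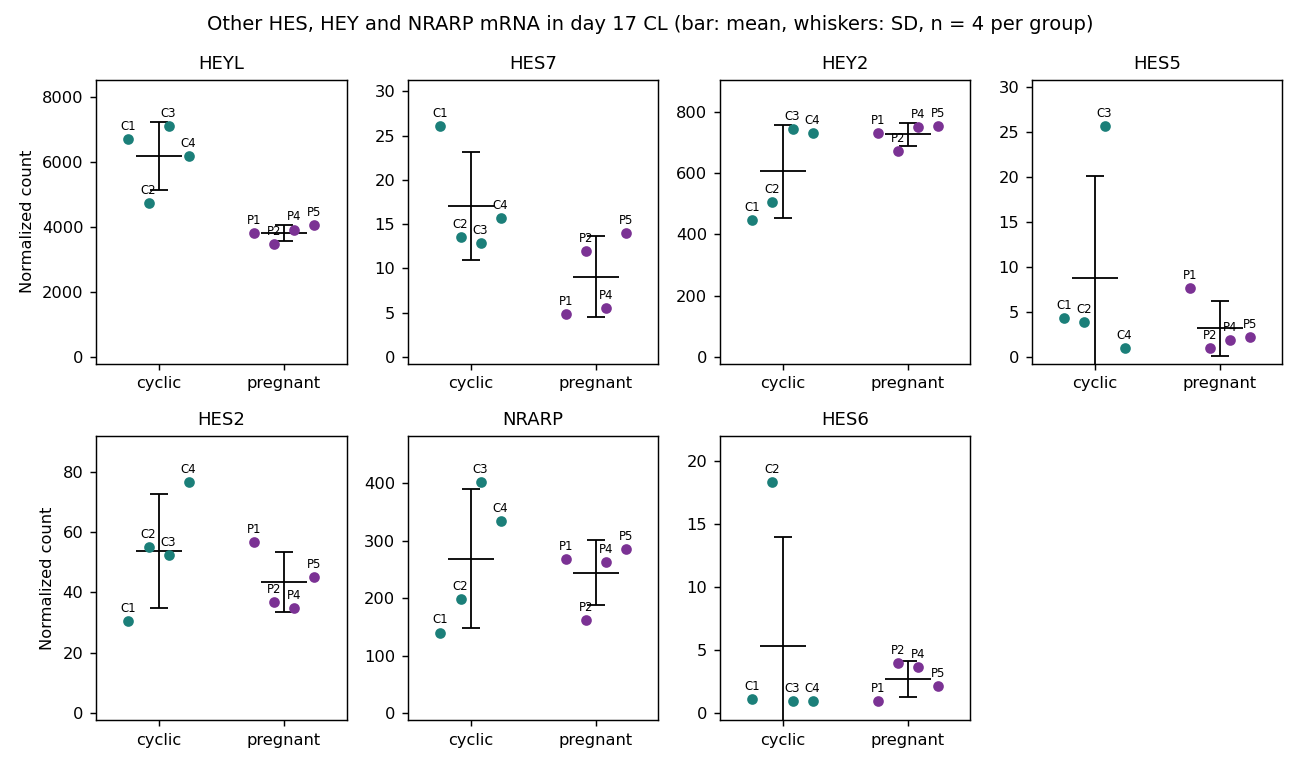
Normalized counts (y axis, linear) of 7 other target genes of the HES and HEY families and NRARP in the 4 cyclic (C) and 4 pregnant (P) CL. Points are CL, bars are means and whiskers are the SD, cut at the axis. HEYL ran from 4718 to 7106 in the cycle and from 3471 to 4044 in pregnancy, and the groups overlapped in the other 6 panels.

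In the other targets the groups overlapped. HEY2, an arterial HEY gene, had 447, 506, 743 and 730.2 normalized counts in the cycle, against 731, 672, 749.8 and 754 in pregnancy, a log2 difference of 0.29 (SE 0.18, limma adjusted p = 0.721). NRARP, which feeds back on Notch signaling, had 140.2, 199, 402 and 335 in the cycle and 268, 162, 263 and 286 in pregnancy (log2 difference -0.05, limma adjusted p = 0.983). Both were lowest in cyclic replicate 1. HES7, at 5 to 24 reads, had a log2 difference of -0.91 (SE 0.46, limma adjusted p = 0.684), and HES5 and HES6 were at 1 to 26 and 1 to 19 reads. HES2 had a log2 difference of -0.25 (limma adjusted p = 0.872). Of the 7 other targets measured, HEYL among them, 1 was above 0 and 6 below, with a median of -0.25. HES6 and NRARP were close to 0, at -0.04 and -0.05, and HES5 was at -0.79. With a CL left out, HES6 ran from -0.32 to 0.78, NRARP from -0.32 to 0.18 and HES5 from -1.33 to -0.08. HES2, HES7 and HEYL stayed below 0 and HEY2 above 0. Of all genes, 6945 were above 0 and 6916 below. Differences between these targets were not tested.

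Of 65 other pathway genes listed by role, 56 were measured, and ADAM17, EP300, MAML3, KAT2B, DLL3, NEURL1B, NEDD4, AAK1 and HES4 were not analysed here. Of the 56, limma called 0, beside 0.0216% of all genes. In edgeR and limma-voom 0 were called as well, where each called 1 of all 13861 genes. DESeq2, which gave HES5 and HES6 no adjusted p, called 1, HEYL, beside 0.746% of the genes given an adjusted p. Unadjusted limma p was under 0.05 for 7 of the 56, with 3 higher and 4 lower, beside 3.66% and 3.85% of all genes. In 1 the groups did not overlap toward higher values (2.03% of all genes) and in 2 toward lower values (2.27%). Log2 differences were above 0 for 23 and below 0 for 33, with a median of -0.05.

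**Figure D3:**
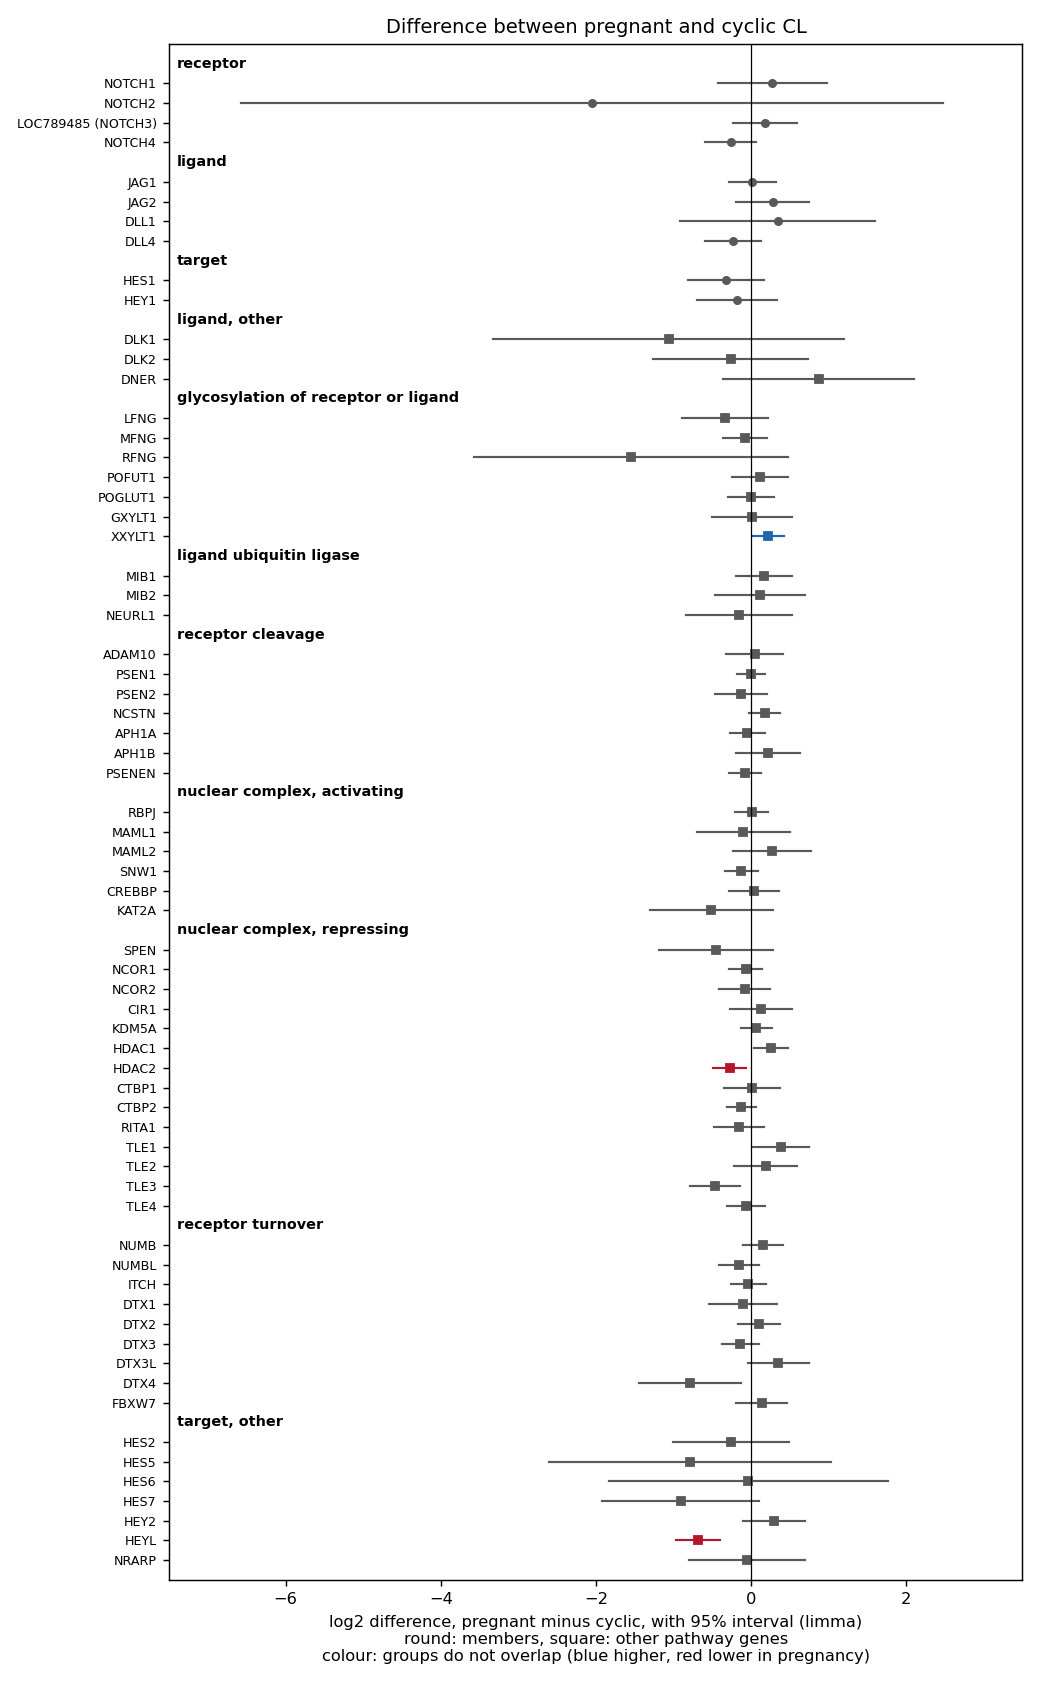
Log2 differences (x axis, pregnant minus cyclic) with 95% intervals from limma for the members (round) and the 56 other pathway genes (square), grouped by role. Color marks genes whose groups did not overlap, which were XXYLT1 (higher) and HDAC2 and HEYL (lower). The interval of NOTCH2 was the widest, from -6.58 to 2.47.

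Of 7 measured genes for cutting the receptor, 3 were above 0 and 4 below (median -0.0025), and 0 had an unadjusted p under 0.05 in limma. NCSTN, a gamma-secretase subunit, had 9023 ± 632 normalized counts in the cycle against 10203 ± 901 in pregnancy (log2 difference 0.18, limma adjusted p = 0.684). Its partner APH1B had a log2 difference of 0.22 (limma adjusted p = 0.796).

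Enzymes that add sugars to Notch receptors include the Fringe enzymes and XXYLT1, a xylosyltransferase. Of 7 measured, 3 were above 0 and 4 below. XXYLT1 had 1599 ± 80.3 normalized counts in the cycle, against 1869.5 ± 141 in pregnancy, with all pregnant CL above the cyclic ones (log2 difference 0.22, SE 0.09, limma adjusted p = 0.626). RFNG, a Fringe enzyme, had 1 read in pregnant replicate 1, where the other CL had 26 to 82 (log2 difference -1.55, SE 0.91, limma adjusted p = 0.714). This difference was -0.48 when pregnant replicate 1 was left out and -0.87 in both edgeR and DESeq2.

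Of 3 other ligands measured, DNER had 32.4 ± 21.3 and 47.9 ± 4.40 normalized counts and DLK1 had 29.1 ± 21.8 and 23.3 ± 35.6 (limma adjusted p = 0.731 and 0.822). The log2 difference of DNER, 0.87, was 0.28 without cyclic replicate 2, and that of DLK1, -1.06, ran from -2.01 without pregnant replicate 4 to -0.47 without pregnant replicate 5. The ligases that prepare ligands for signaling, MIB1 and NEURL1, had log2 differences of 0.16 and -0.16 (limma adjusted p = 0.830 and 0.918).

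Nuclear partners of Notch held both directions. RBPJ, which carries the signal to DNA, had a log2 difference of 0.0062 with a 95% interval of -0.21 to 0.22. In the activating complex, 3 of 6 were above 0, and KAT2A and SNW1, at -0.51 and -0.13, had the smallest p of that group (limma adjusted p = 0.751 and 0.768). Among 14 genes of repressing complexes, 6 were above 0 and 8 below. HES proteins act through corepressors of the TLE family, of which TLE3 had 2281 ± 372 and 1652 ± 221 normalized counts and TLE1 had 1607 ± 356 and 2082 ± 345. Their log2 differences were -0.46 (SE 0.14) and 0.38 (SE 0.17), in opposite directions, with limma adjusted p of 0.568 and 0.647. The histone deacetylases HDAC1 and HDAC2 had log2 differences of 0.25 and -0.27 (limma adjusted p = 0.622 and 0.589), and for HDAC2 the groups did not overlap.

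Among 9 regulators of receptor turnover, 4 were above 0 and 5 below. DTX4, a ubiquitin ligase of the deltex family, had 118 ± 25.9 and 69.1 ± 21.8 normalized counts (log2 difference -0.79, SE 0.29, limma adjusted p = 0.614), and DTX3L had 1366 ± 317 and 1727 ± 266 (log2 difference 0.35, limma adjusted p = 0.684).

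The members varied between animals within each group. Cyclic replicate 3 held the highest value of 5 of the 10 genes (NOTCH1, JAG1, DLL4, HES1 and HEY1) and the lowest of 0. Pregnant replicate 2 held the lowest value of NOTCH4, DLL4 and HES1 but the highest of LOC789485. Cyclic replicate 1 was lowest in LOC789485, DLL1 and HEY1, and cyclic replicate 2 in NOTCH1, JAG1 and JAG2. The mean endothelial marker level in SD units was also highest in cyclic replicate 3 (0.90) and lowest in pregnant replicate 2 (-1.25). By the summed level, pregnant replicate 4 was the highest (142217, against 141956 in cyclic replicate 3).

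**Figure D4:**
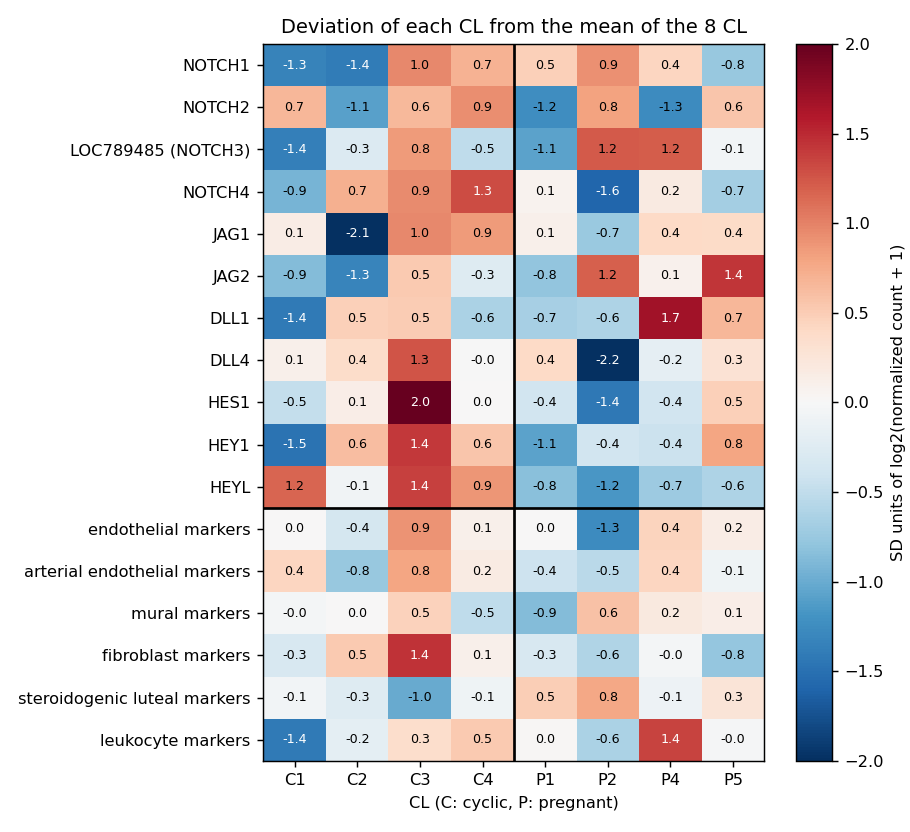
Deviation of each CL (columns, C cyclic and P pregnant) from the mean of the 8 CL, in SD units of log2(normalized count + 1), for the members, LOC789485 and HEYL (upper rows) and for the mean over each list of cell type markers (lower rows). HES1 reached 2.0 in C3, where the endothelial markers were at 0.9, and DLL4 fell to -2.2 in P2, where they were at -1.3.

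Relations of the members to vascular markers were computed over the 8 CL for 9 genes and the endothelial and mural lists, which gives 18 relations. DLL1, at 1 to 8 reads, was left out. NOTCH2, at 1 or 2 reads in cyclic replicate 2 and pregnant replicates 1 and 4, was left out too. For LOC789485 and the mural markers, Pearson's r was 0.76 (exact permutation p = 0.0256, adjusted 0.217) and Spearman's rho 0.90 (exact permutation p = 0.00456, adjusted 0.0411). Without the 2 CL farthest from the median marker level, r was 0.81, and over deviations from the group means it was 0.80. For JAG1 and the endothelial markers, r was 0.65 (exact permutation p = 0.107, adjusted 0.384) and rho 0.90 (exact permutation p = 0.00456, adjusted 0.0411), and r was 0.80 without the 2 CL.

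DLL4 and HES1 had r of 0.86 and 0.80 with the endothelial markers (exact permutation p = 0.0185 and 0.0362, adjusted 0.217 each). Without cyclic replicate 3 and pregnant replicate 2, r was -0.75 for DLL4 and -0.24 for HES1, so both relations rest on those CL. NOTCH4 had r of 0.61 over all CL (exact permutation p = 0.1004, adjusted 0.384) and -0.19 without the 2. HEYL had r of -0.01 with the mural markers (exact permutation p = 0.984) and 0.55 with the endothelial markers (exact permutation p = 0.167, adjusted 0.429). The latter was 0.69 over deviations from the group means and -0.26 without the 2 CL. After adjustment, 0 of 18 relations passed by r and 2 by rho. LOC789485, whose rho with the mural markers passed, and HEYL were added to the relations after seeing the data. The set of 18 was thus not fixed beforehand. Each group has 4 CL, too few for a relation within a group.

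**Figure D5:**
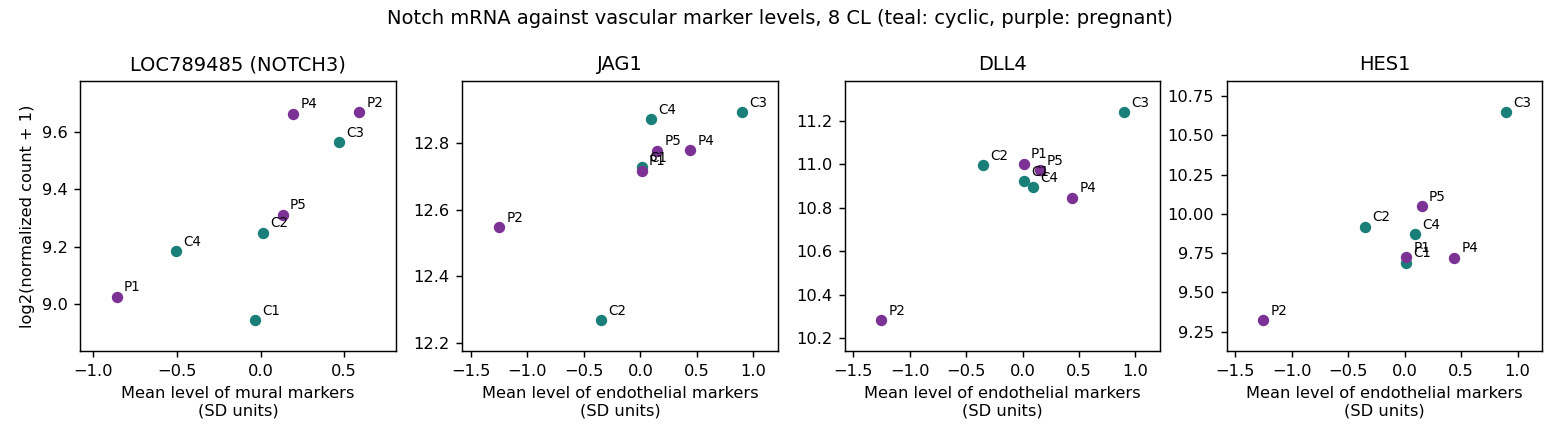
log2(normalized count + 1) of 4 genes (y axis) against the mean level of mural or endothelial markers in SD units (x axis) in the 8 CL (C cyclic, P pregnant). LOC789485 and JAG1 kept r of 0.81 and 0.80 without the 2 CL farthest from the median, while DLL4 and HES1 did not keep a positive r without C3 and P2.

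The genes whose values were most like those of a member over the 8 CL were found among 11132 others with a mean of at least 50 normalized counts, as a description. NOTCH4 was most like NLRC4 (r = 0.98, rho = 0.98), JAG1 most like SEC24D (r = 0.96, rho = 0.67) and DLL4 most like RAP1B (r = 0.95, rho = 0.57). HES1 was most like MIER2 (r = 0.97, rho = 0.90), HEY1 like LRRN2 (r = 0.96, rho = 0.93) and JAG2 like SLC4A2 (r = 0.96, rho = 0.98). NOTCH1 was most like PHF2 (r = 0.97, rho = 0.83), NOTCH2 like CLU (r = 0.95, rho = 0.76) and LOC789485 like ATG2A (r = 0.96, rho = 0.98). HEYL was most like ZNF565 (r = 0.97, rho = 0.93). Next in order were EFS and CDK2 for NOTCH4, TCF15 and GNA15 for JAG1, TMEM65 and PKIG for DLL4, NXN and CXHXORF23 for HES1, MRGPRF and TRAPPC6A for HEY1, and CTDSP1 and THBS3 for JAG2. For NOTCH1 they were LOC100297914 and TNFAIP1, for NOTCH2 GGNBP2 and PPP2R5A, for LOC789485 PRKCZ and ARIH2, and for HEYL CYB5A and GADD45A, and these 20 genes had r of 0.92 to 0.97. All of these r were the highest of many over 8 CL and carry no test.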

How the data were processed

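RNA of day 17 CL from 8 heifers was sequenced as strand-specific libraries. The authors' table holds deposited signal values, that is reads per gene divided by 1 factor per CL. Genome build, annotation, aligner and read counter were not given in the sources at hand. The deposited group means equal the means of the CL and were not used.

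Dividing by the smallest value of a CL gave whole numbers, within 0.01, for at least 99.9% of genes, which were taken as reads. No pair of CL agreed within sampling noise (chi-square of 61.0 to 138 for each degree of freedom). Reads are not independent molecules, and depth limits genes with few reads.

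A minimum mean of 1 was asked, which all 13861 genes met. The limma trend test (limma 3.58.1 in R 4.3.3) was run on log2(value + 1) for the 8 CL with no covariate and with Benjamini-Hochberg adjustment. For single genes, group labels were also permuted exactly (two-sided, 70 labelings). Correlations were tested by exact two-sided permutation over 40320 pairings, with Benjamini-Hochberg adjustment over 18 relations. The test was checked on simulated data with a common spread for all genes and larger changes than those of most members. That check does not cover smaller changes.

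Alternatives were pseudocounts of 0.1, 0.5 and 5, no filter, a mean of at least 10, quantile normalization, TMM factors, each CL left out, a replicate block, an adjusted p under 0.10, and edgeR 4.0.16, limma-voom and DESeq2 1.42.0 on the reads. Relating HEYL to markers, and adding LOC789485 and HEYL to the relations, were chosen after seeing the data.

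Members and lists were chosen with earlier results of these data known. Named genes are all members, pathway genes with an unadjusted p under 0.05, the 2 with the smallest p in each role, and the 3 genes most like each member with a mean of at least 50. HES2, HEY2, NRARP, RBPJ, HES5, HES6, DCN and LOC788846 were added after their values were seen. Of 65 pathway genes 54 matched by symbol and 2 by an older symbol. Gene IDs were looked up in RefSeq (assembly ARS-UCD2.0). Shares of receptors and ligands per coding length were not run. Figures were drawn with matplotlib 3.10.9, and scipy 1.17.1, pandas 2.3.3 and numpy 2.4.6 ran under Python 3.11.15.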

Additional observations from a re-analysis of the deposited data

Results flagged for a closer look

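DLK1, a non-canonical ligand, had 76.4 normalized counts in pregnant replicate 4, where the other CL of pregnancy had 2.15 to 10.6. Its distance from them was 0.887 of the range of the group, above Dixon's 95% critical value for 4 samples. Of 56 groups of 4 tested (28 genes in 2 groups) this was the 1 beyond that value. That is a smaller share than the about 1 in 20 groups that chance would give.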

How the results depend on the processing

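For the members, 0 passed under each of the alternatives run. Over all genes 3 passed, and the number was 95 in DESeq2, 1 in edgeR, 1 in limma-voom, 1 with a pseudocount of 5 and from 1 to 4 with a CL omitted. It was 1 on omitting cyclic replicate 2, 3, 4 or pregnant replicate 1, 2, 5. Of the other pathway genes, 0 passed under the alternatives except DESeq2, where 1 did (HEYL, log2 difference -0.70). HEYL ran from -0.81 to -0.61 with a CL omitted, and was -0.70 in edgeR and -0.64 with a replicate block. Its adjusted p ran from 0.000969 in DESeq2 to 0.779 in limma with a CL omitted (0.0548 without cyclic replicate 2). JAG1 changed sign, to -0.0026 in DESeq2 and edgeR, and spanned -0.13 to 0.082 with a CL omitted, and NEURL1 spanned -0.42 to 0.094. With marker levels as log2 of the sum, r changed sign for NOTCH1 with mural (-0.020), LOC789485 with endothelial (0.015) and HES1 with mural markers (-0.14). The causes were not tested.

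Replicate numbers shared by the groups gave r of -0.06 to 0.04 between the deviations of same-numbered CL, 0 of 3 cyclic CL was most like its own number, and the numbers were taken as names. With a replicate block 0 genes passed. The shares of receptors and ligands per kilobase, and their alternative without length, were not run because coding lengths were not at hand. DLL1, at 1 to 8 reads, could not be measured well at this depth, and DLL1 was not tested with a minimum mean of 10.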
